A study of Mus musculus with 32 samples.

Results

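The transcription factor gene Foxo1 was followed together with its relative Foxo3 and 7 genes known as targets of FOXO factors in resting cells: Txnip, Ccng2, Sesn1, Sesn3, Pik3ip1, Irs2 and Tsc22d3. The members were every probe whose gene name in the array annotation is one of these symbols, which gave 9 of 34797 gene names and 13 probes. RNA of mouse B cells and B cell lymphoma lines had been hybridised to 32 arrays of the 2-colour kind. The lymphoma group held 9 cell lines, on 12 arrays, of spleen origin, from mice that lack both the DNA damage kinase ATM and CD3 epsilon (ATMKO.CD3epsilonKO), and each line counted as 1 sample. Germinal centre (GC) B cells came from ATMWT mice immunised with sheep red blood cells (SRBC); the 3 GC arrays counted as 1 sample, because which of them share an animal is not given. Splenic B cells stimulated through the B cell receptor with goat antibody against mouse IgM at 15 ug/ml gave 4 samples, ATMKO.CD3epsilonKO at 3, 6 and 24 h and ATMWT.CD3epsilonKO at 6 h. Untreated splenic B cells gave 2 samples, 1 of ATMKO.CD3epsilonKO and 1 of ATMWT.CD3epsilonKO mice. All of these were read in Cy5 against 1 common pool in Cy3, a mix of splenic B cell, tumour and GC B cell RNA. In a separate time course, the ATMKO.CD3epsilonKO lymphoma lines 178119 and 28545 received 100 nM PCI-32765 (ibrutinib, which blocks BTK, a kinase that acts just below the B cell receptor) for 1, 3, 6 or 24 h and were read in Cy5 against cells given the vehicle DMSO in Cy3, with 1 array per line and time. CD3 epsilon is thus missing from every lymphoma line and every splenic sample, whereas the GC mice are labelled ATMWT only. The labels do not say whether repeat samples came from separate cultures or animals, so p-values measure the spread between these samples, part of which may be technical.

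FOXO factors are DNA-binding proteins that keep resting lymphocytes out of the cell cycle and switch on genes that slow growth and sense nutrients. Antigen receptors and growth factor receptors activate PI3K and then the kinase AKT, which phosphorylates FOXO proteins and drives them out of the nucleus, so that transcription of their targets drops. In B cells FOXO1 also maintains homing receptors and is used again in the germinal centre. Arrays measure messenger RNA and not the phosphorylation or location of FOXO proteins.

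The stretches of 250 bases before the RefSeq transcription starts (GRCm38.p6) of 4 members that rose under PCI-32765 are printed here to show which of them hold a FOXO-type motif. The motifs searched on both strands were GTAAACA and CAAAACA, which do not overlap each other here, and the E box CACGTG; capitals mark a match. Txnip lies at chr3:96557707-96557956 on the plus strand, Ccng2 at chr5:93267323-93267572 on the plus strand, Irs2 at chr8:11008930-11009179 on the minus strand and Pik3ip1 at chr11:3330481-3330730 on the plus strand.
Txnip: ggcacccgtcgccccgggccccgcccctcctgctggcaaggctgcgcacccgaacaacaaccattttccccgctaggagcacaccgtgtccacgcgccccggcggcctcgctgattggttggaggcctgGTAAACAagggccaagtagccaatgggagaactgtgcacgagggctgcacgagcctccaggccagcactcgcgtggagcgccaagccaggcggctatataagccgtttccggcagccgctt
Ccng2: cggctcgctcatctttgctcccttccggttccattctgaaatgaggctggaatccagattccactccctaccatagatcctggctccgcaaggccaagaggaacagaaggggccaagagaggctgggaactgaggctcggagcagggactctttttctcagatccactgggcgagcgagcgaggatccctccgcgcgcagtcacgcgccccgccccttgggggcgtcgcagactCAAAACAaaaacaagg
Irs2: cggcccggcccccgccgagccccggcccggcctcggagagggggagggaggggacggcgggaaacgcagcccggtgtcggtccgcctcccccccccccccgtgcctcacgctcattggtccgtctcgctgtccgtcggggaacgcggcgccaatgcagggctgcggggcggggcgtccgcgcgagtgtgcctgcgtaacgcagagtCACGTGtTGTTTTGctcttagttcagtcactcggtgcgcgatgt
Pik3ip1: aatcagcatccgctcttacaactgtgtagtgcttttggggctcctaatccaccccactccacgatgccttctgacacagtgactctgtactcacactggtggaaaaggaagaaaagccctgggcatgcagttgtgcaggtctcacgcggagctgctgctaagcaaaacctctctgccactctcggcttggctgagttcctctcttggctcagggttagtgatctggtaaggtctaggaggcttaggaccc
Txnip has GTAAACA starting 121 bases before the start, and Ccng2 has CAAAACA at 16 bases. Irs2 has CAAAACA on the opposite strand, read here as its reverse complement, at 37 bases, next to an E box at 44 bases. Neither FOXO-type motif occurs in the Pik3ip1 stretch, nor in those of Foxo1, Foxo3, Sesn1 (2 starts), Sesn3 or Tsc22d3 (3 starts). Across 32851 RefSeq promoters of the same length, 3.17% hold GTAAACA, 5.56% CAAAACA, 8.51% either of them and 6.02% the E box. A match is a description of the letters and not a binding site.

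Data quality set limits on some of the values that follow. Spots well above background made up 49.9% to 60.7% of the sample channel on the pool arrays, apart from the first GC array (29.4%) and the first of 2 arrays of line 1039 (21.9%). The first GC array had correlations across probes of 0.0888 and 0.0893 with the remaining GC arrays, which themselves had one of 0.983. On the drug arrays the share was 45.6% to 53.0%, except for line 28545 at 24 h (85.5%). Lymphoma and untreated arrays ran in opposite directions against the pool, with correlations of -0.487 to -0.174 across probes, and the dye assignment is taken from the labels. No dye was swapped, so a dye bias of a probe drops out of differences between pool samples but stays in each ratio of PCI-32765 over DMSO. Atm, the deleted gene, read -1.11 to -0.23 (log2 ratio to the pool) in the lymphoma lines and -0.85 to -0.43 in ATMKO splenic B cells, against 0.71 in GC B cells and 0.25 and 0.53 in ATMWT splenic B cells. Cd3e did not separate the genotypes in the same way. It read -0.64 to 1.15 in the lines, -0.38 to 0.79 in ATMKO and -0.14 and 0.98 in ATMWT splenic B cells, and -1.84 in the GC sample. The GC sample, the only one not labelled as lacking CD3 epsilon, was thus the lowest. Whether the Atm or the Cd3e probe lies inside the deleted part is not known.

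Lymphoma lines were first set against untreated splenic B cells, which asks how the resting programme differs in tumour cells. Of the 9 members, Sesn1, Tsc22d3, Txnip, Foxo1 and Pik3ip1 were lower in the lymphoma lines, Foxo3 was higher, and Irs2, Sesn3 and Ccng2 did not pass the test (limma, Benjamini-Hochberg adjusted p below 0.05 over 21419 genes). In this comparison 35.8% of all genes passed, 14.7% higher and 21.1% lower in the lines, so that many genes of any kind changed. The median difference was -1.49 over the members and -0.0139 over all genes tested, on the log2 scale. Below, a level is the log2 ratio of a sample to the pool, read from the brightest probe of each gene, and levels of different genes are not compared. Where groups of samples are said not to overlap, the share of all genes that did the same was not counted. Such a separation is thus not read as a trait of the members.

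**Figure D1:**
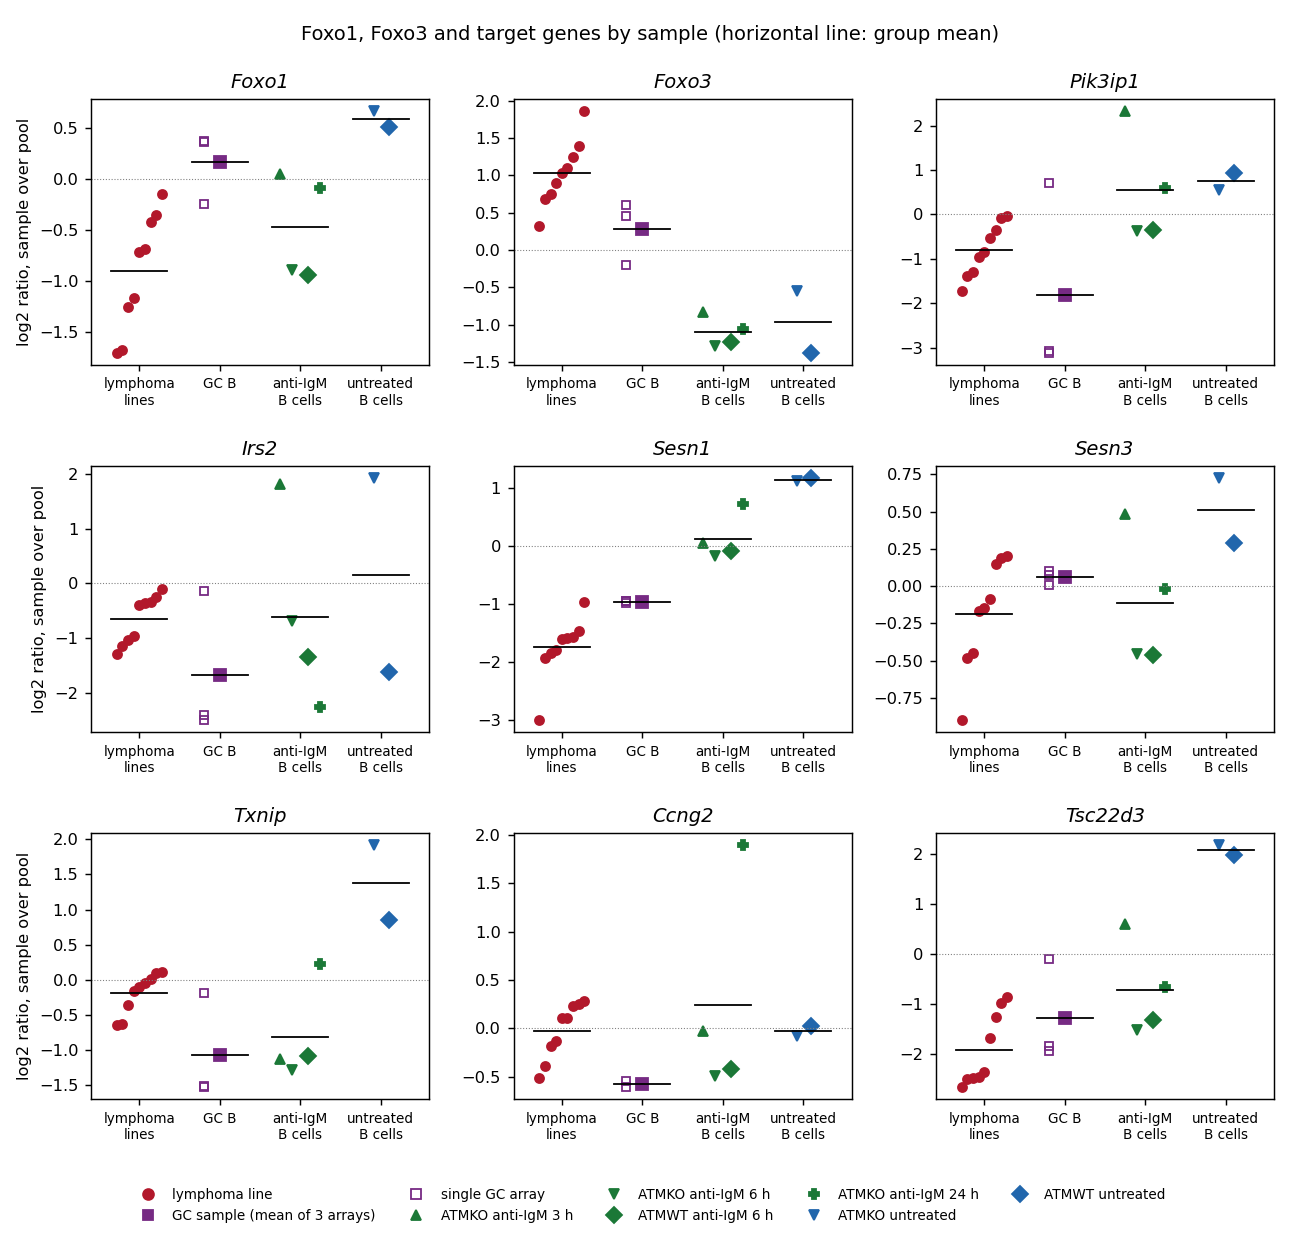
Level of each gene (log2 ratio, sample over pool) in each sample, with 1 panel per gene, groups along the horizontal axis and a horizontal line at the group mean. Open squares are the single GC arrays (2 for Ccng2, 3 otherwise), which are not separate samples. All 9 lymphoma lines lie below both untreated samples for Foxo1, Pik3ip1, Sesn1, Sesn3, Txnip and Tsc22d3, and above both for Foxo3. The share of all genes separated in this way was not counted.

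Foxo1, the main FOXO factor of B cells, had levels of -1.70 in the lowest line (1001), -0.71 in the median line and -0.14 in the highest line (1013), against 0.67 in ATMKO and 0.51 in ATMWT untreated B cells. Every line was below both untreated samples. The difference was -1.49 ± 0.39 (SE; adjusted p = 0.00779), which is 2.81-fold lower in the lines. The probe (A_51_P138044, mm9 chr3:52150183-52150242, plus strand) was joined by a second Foxo1 probe with a difference of -1.22 ± 0.36 (adjusted p = 0.015).

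Foxo3, a second FOXO factor with overlapping targets, ran the other way: its levels were 0.32 in the lowest line (1036), 1.04 in the median and 1.87 in the highest (1019), against -0.55 and -1.38 in ATMKO and ATMWT untreated B cells. All 9 lines were above both untreated samples, and the difference was 2.00 ± 0.31 (adjusted p = 0.000147). This value belongs to a probe designed on a cDNA clone (A_55_P2129309, mm9 chr10:41967288-41967347, minus strand). The other Foxo3 probe, designed on the RefSeq transcript and 61618 bases away (chr10:41905610-41905669), gave -0.11 ± 0.13 (adjusted p = 0.523) and was well above background on only 2 of 12 lymphoma arrays, though on all 4 untreated arrays. The 2 probes disagree, so the higher level holds for the clone probe only.

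Among the brakes and adaptors of PI3K signalling, Pik3ip1 encodes a membrane protein that restrains PI3K, and Irs2 an adaptor that links insulin and cytokine receptors to it. Pik3ip1 levels were -1.72 in the lowest line (1036), -0.85 in the median and -0.03 in the highest (1019), against 0.56 and 0.94 in ATMKO and ATMWT untreated B cells. The groups did not overlap, and the difference was -1.55 ± 0.58 (adjusted p = 0.0496; probe at mm9 chr11:3242107-3242166). That call sits at the threshold: it was lost in 18 of 31 alternative settings, and the second Pik3ip1 probe gave -1.63 ± 0.62 (adjusted p = 0.0549). Irs2 spanned -1.29 to -0.10 in the lines, between the 2 untreated samples, of which ATMKO read 1.92 and ATMWT -1.61 (difference -0.81 ± 0.85, adjusted p = 0.497; probe at chr8:11004490-11004549).

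The sestrins restrain the growth kinase complex mTORC1 and limit oxidative damage. Sesn1 levels were -2.99 in the lowest line (1036), -1.59 in the median and -0.95 in the highest (1039), against 1.12 and 1.18 in ATMKO and ATMWT untreated B cells. The highest line was still well below both untreated samples, and the difference of -2.89 ± 0.36 (adjusted p = 2.55e-05) is 7.41-fold (probe at chr10:41628012-41628071). Sesn3 spanned -0.90 to 0.20 in the lines, against 0.73 and 0.29 in ATMKO and ATMWT untreated B cells. Its groups did not overlap either, but the difference of -0.70 ± 0.28 did not pass (adjusted p = 0.0701; probe at chr9:14130452-14130511).

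Txnip encodes an arrestin that binds thioredoxin and holds back glucose uptake. Its levels were -0.65 in the lowest line (1007), -0.10 in the median and 0.11 in the highest (1004), against 1.92 and 0.85 in ATMKO and ATMWT untreated B cells. All lines were lower, by -1.57 ± 0.35 on the log2 scale (adjusted p = 0.00256; probe at chr3:96365147-96365206), and the second Txnip probe gave -0.93 ± 0.29 (adjusted p = 0.0223). Ccng2, which encodes the atypical cyclin G2 that is high in arrested cells, spanned -0.51 to 0.28 in the lines, with 5 lines above and 4 below both untreated samples (-0.07 and 0.02). Its difference was -0.00 ± 0.44 (adjusted p = 0.999; probe at chr5:93705131-93705190).

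Tsc22d3 encodes GILZ, a leucine zipper protein induced by glucocorticoids as well as by FOXO factors. Its levels were -2.65 in the lowest line (1007), -2.35 in the median and -0.85 in the highest (1010), against 2.17 and 1.99 in ATMKO and ATMWT untreated B cells. The gap between the groups was wider than the spread over lines, and the difference of -3.99 ± 0.55 (adjusted p = 6.02e-05), 15.9-fold, was the largest of the 9 members (probe at chrX:137074094-137074153).

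These differences are between whole cell populations, and fewer cells of a type and less RNA per cell cannot be told apart. Markers of other cell types moved with the groups. The median level of 13 T cell markers was -2.88 to -1.28 over the lines and 0.781 to 0.785 in the untreated samples, that of 13 macrophage and monocyte markers -2.07 to -1.13 and 0.738 to 0.812, and that of 11 neutrophil markers -4.49 to -2.17 and 1.06 to 1.15. The lists of 10 NK cell, 10 erythroid and 7 stromal markers moved the same way. Klrk1, Klrd1, Eomes, Klra8, C1qa, Ccr2, Mmp9, Col1a1, Col3a1, Vcam1 and Fn1 were above background on no lymphoma array. Many others were above background on a share of 0.5 or more of these arrays. These were 12 of 13 T cell, 11 of 13 macrophage and monocyte and 9 of 11 neutrophil markers. So were 9 of 10 erythroid, 5 of 10 NK cell and 4 of 9 stromal markers. The 10 B cell markers lay at -0.391 to 0.548 over the lines and 0.433 to 0.479 in the untreated samples. The part of other cell types in the members' differences was not tested. With 1 untreated sample left the calls thinned out: without the ATMKO untreated sample Foxo1, Pik3ip1 and Txnip no longer passed (adjusted p = 0.0846, 0.152 and 0.111), and without the ATMWT one Foxo1 and Pik3ip1 did not (0.0556 and 0.267). With slide as a block the count was again 6 of the 8 members tested, beside 40.1% of all genes, with Sesn3 (-0.73, adjusted p = 0.0157) in and Pik3ip1 (-1.64, 0.0771) out. Within slides 2, 3 and 4 alone, 3, 1 and 5 members passed, where 17.3%, 2.47% and 16.6% of all genes did; the Foxo1 difference was -1.26, -1.72 and -1.66 there, that of Sesn1 -2.89, -2.81 and -2.66 and that of Tsc22d3 -4.13, -3.69 and -3.92.

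**Figure D2:**
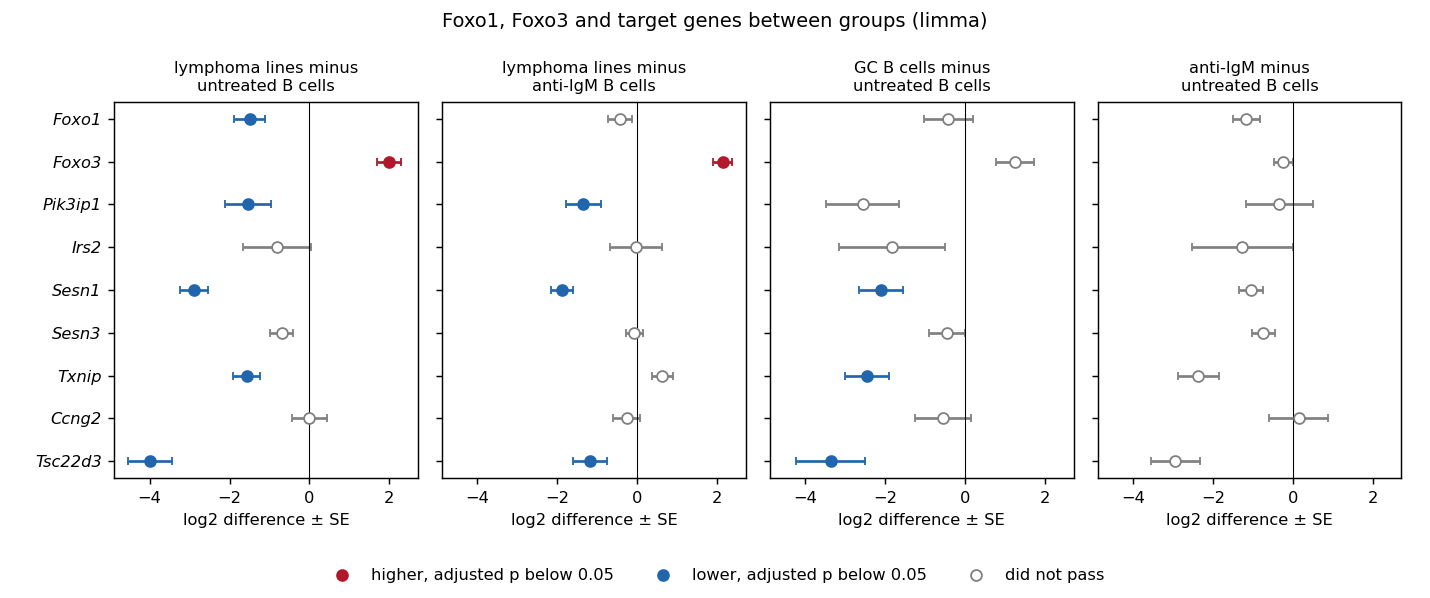
Log2 difference ± SE of each gene in 4 comparisons, with 1 panel per comparison and zero marked by the vertical line. Filled points passed an adjusted p of 0.05 (red higher, blue lower) and open points did not: 6 genes passed in lymphoma lines minus untreated B cells, 4 in lymphoma lines minus anti-IgM B cells, 3 in GC B cells minus untreated and 0 in anti-IgM minus untreated.

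Wider lists of pathway genes moved unevenly in the same comparison. Of 10 other FOXO targets that set lymphocyte identity and homing, 7 were lower and 1 higher, with a median of -2.88: the lymph node homing receptor gene Ccr7 (-7.07 ± 0.79, adjusted p = 1.05e-05) and the egress receptor gene S1pr1 (-4.37 ± 0.85, adjusted p = 0.00106) were among the lower ones. Of 9 tested arrest genes 4 were lower, among them the antiproliferative genes Btg1 (-3.16 ± 0.24) and Klf4 (-3.02 ± 0.36), and 3 higher, led by the p21 gene Cdkn1a (3.48 ± 0.42), also a p53 target. The 7 death genes split into 3 higher (Trib3, Bnip3 and Bbc3) and 1 lower (Fasl, -3.17 ± 0.50). Of 27 genes of the PI3K-AKT pathway 10 were lower and 2 higher (median -0.431), with the PI3K subunit gene Pik3r5 (-3.59 ± 0.39) and the kinase gene Sgk1 (-2.93 ± 0.45) lowest. The 12 other FOXO factors and regulators held 5 lower and 2 higher, and 11 tested stress, autophagy and metabolism targets 2 lower and 1 higher. Of 7 growth genes that FOXO factors oppose, 4 were higher, led by the mitotic cyclin gene Ccnb1 (2.62 ± 0.27), and 2 lower, among them Myc (-2.52 ± 0.52). All 6 genes of the glucocorticoid receptor axis, which also drives Tsc22d3, were lower (median -1.95), including the receptor gene Nr3c1 (-1.33 ± 0.24) and the phosphatase gene Dusp1 (-3.60 ± 0.41). Of 6 genes around MondoA, the glucose-sensing regulator of Txnip, 3 were lower, led by Arrdc4 (-2.23 ± 0.27), and 1 higher, the hexokinase gene Hk2 (2.74 ± 0.40). The part of either axis in the Tsc22d3 and Txnip differences was not tested.

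Against anti-IgM-stimulated B cells, lymphoma lines had lower Sesn1, Pik3ip1 and Tsc22d3 and a higher Foxo3 clone probe, where 46% of all genes passed, 21.2% higher and 24.8% lower. The stimulated samples had Sesn1 levels of 0.07 at 3 h, -0.18 (ATMKO) and -0.09 (ATMWT) at 6 h and 0.73 at 24 h. All 9 lines lay below all 4 of them, with a difference of -1.87 ± 0.28 (adjusted p = 6.87e-05). Foxo3 clone probe levels were -0.83, -1.28, -1.23 and -1.06 in the same order, all below all lines, and the difference was 2.13 ± 0.23 (adjusted p = 4.73e-06).

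For Pik3ip1 and Tsc22d3 the stimulated samples differed widely among themselves. Pik3ip1 read 2.33 at 3 h, -0.37 and -0.35 at 6 h and 0.59 at 24 h, and 6 of 9 lines lay below all 4. Tsc22d3 read 0.60 at 3 h, -1.51 and -1.32 at 6 h and -0.66 at 24 h, again with 6 of 9 lines below all 4. The differences of -1.35 ± 0.44 (adjusted p = 0.0223) and -1.19 ± 0.42 (adjusted p = 0.0316) both failed to pass without the 3 h sample, with slide as a block and within each of the 3 slides.

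Foxo1 did not pass here (-0.43 ± 0.30, adjusted p = 0.258), and the lines overlapped the 6 h samples (-0.89 and -0.94) as well as the range up to 0.05 at 3 h. Txnip was at 0.63 ± 0.27 (adjusted p = 0.0676), Sesn3 at -0.07 ± 0.22, Irs2 at -0.04 ± 0.65 and Ccng2 at -0.26 ± 0.34. None of these 5 members passed by its main probe, which does not show that tumour and stimulated cells were alike in them. Txnip lay near the threshold: it passed with slide as a block (0.70, adjusted p = 0.04997), within slide 3 (0.99, 0.0384) and by its second probe (0.58, 0.0457). T cell marker medians were -2.88 to -1.28 over the lines and -0.0214 to 0.401 over the anti-IgM samples, and their part was not tested.

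GC B cells are activated, dividing B cells, and were set against untreated B cells. Sesn1, Txnip and Tsc22d3 were lower in GC B cells, where 11.6% of all genes passed, 4.62% higher and 6.93% lower. The mean levels of the GC sample were -0.96 for Sesn1, -1.08 for Txnip and -1.28 for Tsc22d3. The differences were -2.11 ± 0.56 (adjusted p = 0.0245), -2.46 ± 0.54 (0.00924) and -3.36 ± 0.86 (0.0196). Since GC B cells are 1 sample, the errors of these differences come from the spread within the other groups.

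The GC arrays differed. On the 3 GC arrays in turn, Pik3ip1 read 0.72, -3.11 and -3.07, Txnip -0.19, -1.51 and -1.53, Irs2 -0.13, -2.40 and -2.49, Tsc22d3 -0.10, -1.82 and -1.93, and Sesn1 -0.94, -0.95 and -0.98. Sesn1 was thus nearly the same on all 3, whereas the other 4 genes were low only on the later pair. Without the first array 17.3% of all genes and 5 members passed: Foxo3 by its clone probe (1.50, adjusted p = 0.0439), Pik3ip1 (-3.83, 0.00893), Sesn1 (-2.12, 0.0171), Txnip (-2.90, 0.00206) and Tsc22d3 (-3.96, 0.00528). The Pik3ip1 value rests on 1 probe: the second probe read -0.76 and -0.74 on the later GC arrays, against -0.26 and 0.67 in ATMKO and ATMWT untreated B cells, and differed by -0.82 ± 0.98 over all arrays (adjusted p = 0.685). Foxo1 differed by -0.42 ± 0.61 with that array and by -0.22 without it, and passed in neither case; the later pair of arrays gave it 0.38 and 0.37, against 0.67 and 0.51 in untreated B cells. The GC calls rest on the 2 untreated samples as well: without the ATMKO one no member passed, and without the ATMWT one Txnip alone did. With the authors' series matrix values 3 members were lower and 1, the Foxo3 clone probe, higher. T cell, macrophage and neutrophil marker medians in the GC sample were -1.92, -1.91 and -3.10, below both untreated samples, and their part in these differences was not tested.

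No member passed between lymphoma lines and GC B cells, where 9.78% of all genes did. None had an unadjusted p below 0.05, where 24.1% of all genes did. The share of all genes with every line on 1 side of the GC mean was not counted. Foxo1 was below the GC mean of 0.17 in all 9 lines (-1.07 ± 0.53, adjusted p = 0.233), and Sesn1 below its own GC mean in 8 of 9 (-0.78 ± 0.48, adjusted p = 0.356). The remaining line, 1039, read -0.41 for Sesn1 on its poor first array, where the probe was not above background, and -1.49 on its second. Pik3ip1, Irs2, Txnip, Ccng2 and the Foxo3 clone probe were above the GC mean in all 9, for example Pik3ip1 by 1.02 ± 0.78 (adjusted p = 0.471). The second Pik3ip1 probe ran the other way (-0.81 ± 0.84, adjusted p = 0.621), with all 9 lines (-1.96 to -0.69) below its GC level of -0.62. Without the first GC array Pik3ip1 (2.29, adjusted p = 0.0628) and Txnip (1.33, 0.0722) came nearer to the threshold, and still none passed. The single GC sample leaves wide errors, so this does not show that the groups were alike.

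Stimulation through the B cell receptor activates PI3K and AKT, and anti-IgM samples were compared with untreated splenic B cells in 6 samples with genotype as a term. No member and 0 of 22302 genes passed after adjustment, whereas 1686 genes, 1401 of them lower, had an unadjusted p below 0.05. All 4 anti-IgM samples were below both untreated samples for Foxo1, Sesn1, Txnip and Tsc22d3, the 4 members with an unadjusted p below 0.05. Of all genes 6.28% were lower at that unadjusted p, and the share separated in this way was not counted. Txnip read -1.12 at 3 h, -1.29 (ATMKO) and -1.09 (ATMWT) at 6 h and 0.22 at 24 h, against 1.92 and 0.85 in ATMKO and ATMWT untreated B cells (-2.37 ± 0.50, adjusted p = 0.539). Tsc22d3 differed by -2.94 ± 0.62 (adjusted p = 0.539), Foxo1 by -1.17 ± 0.33 and Sesn1 by -1.05 ± 0.31 (adjusted p = 0.591 for both).

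The 3 ATMKO times differed from one another. At 6 h Foxo1 read -0.89 in ATMKO and -0.94 in ATMWT cells, whereas the ATMKO samples at 3 h and 24 h read 0.05 and -0.09. Pik3ip1, at 2.33, and Irs2, at 1.82, were high at 3 h, while Ccng2 was high at 24 h (1.90, against -0.03 at 3 h and -0.50 and -0.42 at 6 h). A fit of the 6 h and untreated samples alone, added after the data were seen and with 1 residual degree of freedom, called 7 members lower, beside 28.4% of all genes: Tsc22d3 (-3.50 ± 0.14), Txnip (-2.58 ± 0.30), Foxo1 (-1.51 ± 0.12), Sesn1 (-1.28 ± 0.11), Pik3ip1 (-1.11 ± 0.14), Sesn3 (-0.97 ± 0.15) and Ccng2 (-0.43 ± 0.11), with adjusted p from 0.00202 to 0.0439. With slide as a block in the 6-sample fit, Sesn1 (-1.22, adjusted p = 0.0399) and Txnip (-2.70, 0.0298) passed beside 0.875% of all genes. Erythroid marker medians ranged from -1.96 to 1.40 over the anti-IgM samples, against 1.46 to 1.93 in the untreated ones, and NK cell medians from -0.689 to 0.96, against 1.17 to 1.37, and their part was not tested.

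Between ATMKO and ATMWT splenic B cells no member and 0 of 22302 genes passed, with 128 genes and no member at an unadjusted p below 0.05. All 9 members had a positive difference, with a median of 0.486, against 0.0161 over all genes. The share of all genes with a positive one was not counted. The largest, Irs2 (2.00 ± 1.26), rested on the untreated pair, at 1.92 in ATMKO and -1.61 in ATMWT cells. The 3 h and 24 h samples are ATMKO only, so genotype and time are mixed in these differences. Pik3ip1, Ccng2 and Sesn1 were lower in ATMKO cells both untreated and at 6 h. Foxo1, Irs2 and Sesn3 were higher in both, and Foxo3, Txnip and Tsc22d3 in the untreated pair only.

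The members differed in how much they varied among the 9 lymphoma lines. The SD over lines was largest for Tsc22d3 (0.72), Pik3ip1 (0.60) and Foxo1 (0.57), which stood at the percentiles 93.8, 90.5 and 89.6 of all genes tested, whose median SD was 0.242. Sesn1 spanned 4.10-fold from lowest to highest line, Tsc22d3 3.48-fold, Pik3ip1 3.22-fold and Foxo1 2.95-fold. The highest line for Sesn1 was 1039, at the mean of its poor first array and its second. Txnip and Ccng2 varied least, with an SD of 0.29 each. The repeats of lines 1001 and 1010 differed by -0.16 and -0.15 for Foxo1, by 0.08 and 0.22 for Tsc22d3 and by -0.34 and -0.37 for Pik3ip1. In line 1039, whose first array was poor, they differed by -1.86 for Pik3ip1 and -1.36 for Tsc22d3.

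**Figure D3:**
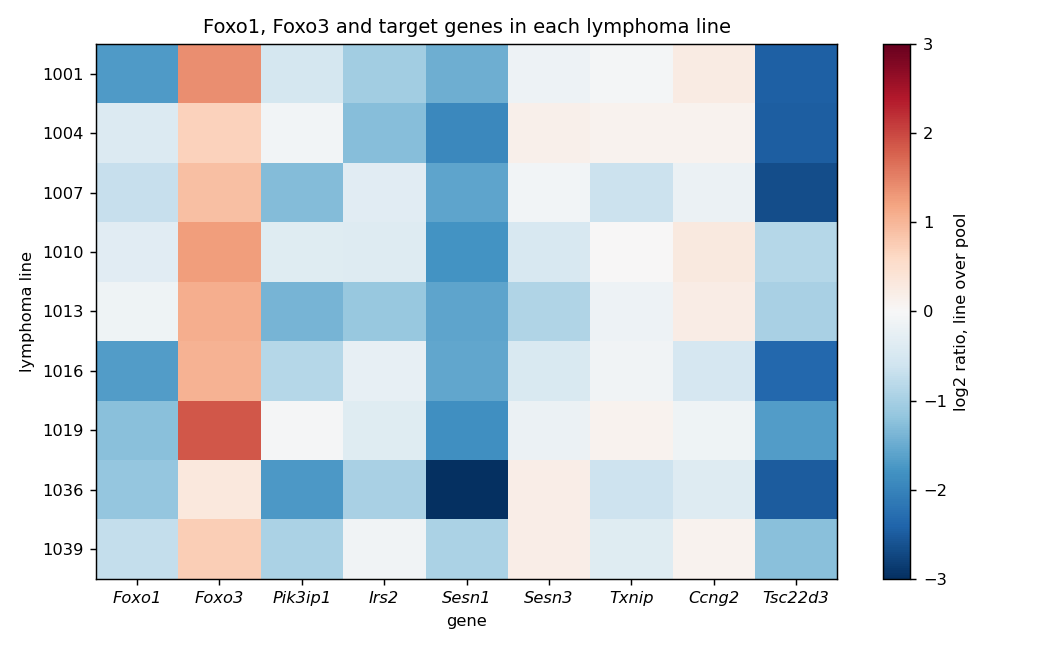
Heat map of the level (log2 ratio, line over pool) of each gene (columns) in each of the 9 lymphoma lines (rows). Line 1036 has the lowest Sesn1 (-2.99) and Pik3ip1 (-1.72), and lines 1010 and 1013 have the highest Tsc22d3 (-0.85 and -0.97).

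No line was low or high for all members. Line 1001 had the lowest Foxo1 (-1.70) with a Tsc22d3 of -2.45, and line 1013 had the highest Foxo1 (-0.14) with a Tsc22d3 of -0.97. Pik3ip1 and Txnip varied together over the 9 lines (r = 0.865), which share the pool and the array design, and line 1039 enters with its poor array. This pair was picked as the highest of all pairs of members, and the others had r from -0.525 to 0.628. Over all 16 pool samples, Foxo1 and Tsc22d3 had r = 0.805 and Sesn1 and Tsc22d3 r = 0.814, over samples that span tumour, activated and resting cells. Measured over the same 16 samples, the named genes most like Foxo1 were Ppp1r15a (r = 0.893) and Carns1 (0.878), those most like Txnip were Snx14 (0.866) and Pnrc1 (0.863), and those most like Pik3ip1 were Fam126b (0.91) and Tbcel (0.908). Sesn1 was most like Tlr13 (0.982) and Sirpb1a (0.965), Tsc22d3 most like AI447881 (0.942) and Col1a2 (0.939), and the Foxo3 clone probe most like Thoc7 (0.963) and Tle1 (0.959). For Sesn3 these were Ralgps2 (0.897) and Fbxo33 (0.867), for Irs2 Impact (0.889) and Coq10b (0.885), and for Ccng2 Nos2 (0.881) and P4ha2 (0.879).

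BTK relays B cell receptor signals towards PI3K and phospholipase C, and the time course asks what happens to the members when it is inhibited. Averaged over 4 times and both lines, Txnip, Ccng2, Pik3ip1, Irs2 and Foxo1 rose under PCI-32765 relative to DMSO, and Sesn3, Tsc22d3, Sesn1 and Foxo3 did not pass. In this comparison 32.4% of all 17911 genes tested passed, 16.7% higher. Mean log2 ratios were 0.78 ± 0.05 for Txnip (SE; adjusted p = 7.86e-06), 0.64 ± 0.04 for Ccng2 (1.3e-05), 0.58 ± 0.07 for Pik3ip1 (0.000214), 0.45 ± 0.07 for Irs2 (0.000655) and 0.30 ± 0.05 for Foxo1 (0.00199). Txnip, Ccng2, Pik3ip1 and Irs2 were above 0 on all 8 arrays and Foxo1 on 6 of 8. The median over the members was 0.304, against 0.00503 over all genes.

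**Figure D4:**
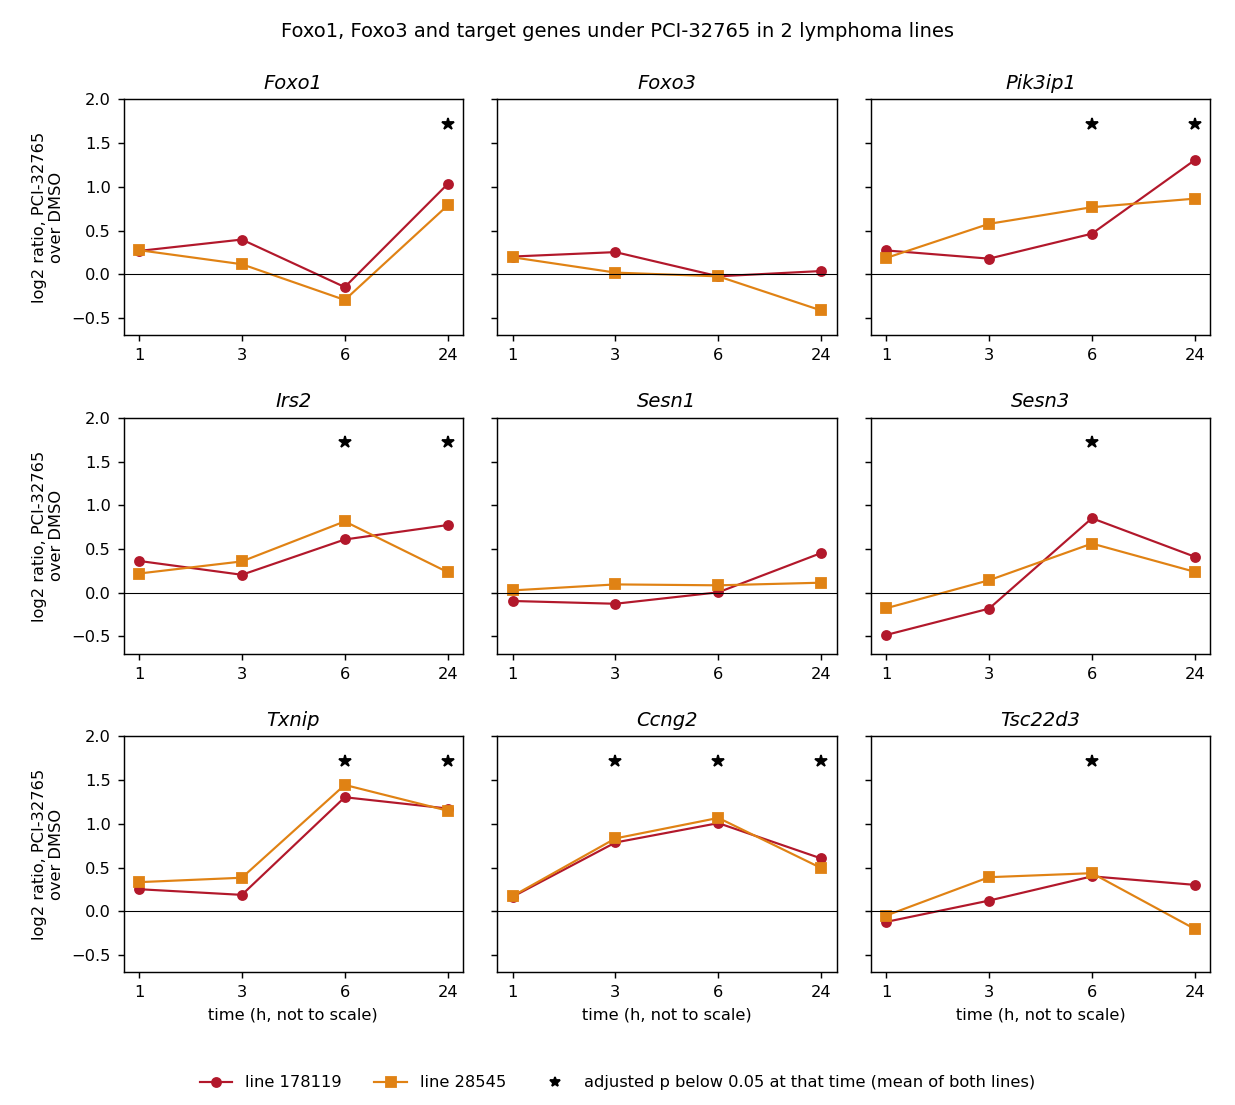
Log2 ratio of PCI-32765 over DMSO at 1, 3, 6 and 24 h (time not to scale) for each gene, with 1 line per lymphoma line and stars where the mean of both lines passed an adjusted p of 0.05. Ccng2 passed from 3 h on, Txnip, Pik3ip1 and Irs2 from 6 h on, and Foxo1 at 24 h.

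The members passed at different times. At 1 h none passed, where 0.1% of all genes did, and 4 had an unadjusted p below 0.05, where 15.7% of all genes did. At 3 h Ccng2 alone had risen (0.81 ± 0.09, adjusted p = 0.000858), where 7.21% of all genes passed, 3.08% higher. At 6 h 6 members had risen, where 24.3% passed, 12% higher, and at 24 h 5 had, where 23.1% passed, 11.1% higher.

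Ccng2 read 0.17, 0.79, 1.01 and 0.60 at 1, 3, 6 and 24 h in line 178119 and 0.17, 0.83, 1.07 and 0.49 in line 28545. Both lines were highest at 6 h (1.04 ± 0.09, adjusted p = 9.22e-05) and lower again at 24 h (0.55 ± 0.09, adjusted p = 0.00259). Txnip read 0.25, 0.19, 1.30 and 1.18 in line 178119 and 0.33, 0.38, 1.45 and 1.15 in line 28545. It was thus low until 3 h and then high at 6 h (1.38 ± 0.10, adjusted p = 4.74e-05), 2.59-fold, and at 24 h (1.16 ± 0.10, adjusted p = 7.42e-05). The second Txnip probe gave smaller ratios of 0.74 at 6 h (adjusted p = 0.00139) and 0.75 at 24 h (0.00165).

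Of the PI3K regulators, Pik3ip1 read 0.27, 0.18, 0.46 and 1.31 in line 178119 and 0.19, 0.58, 0.77 and 0.86 in line 28545. It passed at 6 h (0.62 ± 0.14, adjusted p = 0.0102) and was highest at 24 h (1.09 ± 0.14, adjusted p = 0.000796). Its second probe read 0.20 at 6 h (adjusted p = 0.282) and 0.46 at 24 h (adjusted p = 0.0251). That probe was dim, above background in the DMSO channel on only 1 of 8 arrays. Irs2 read 0.36, 0.21, 0.61 and 0.77 in line 178119 and 0.22, 0.36, 0.82 and 0.24 in line 28545. It passed at 6 h (0.71 ± 0.13, adjusted p = 0.00392) and at 24 h (0.50 ± 0.13, adjusted p = 0.0205), where the 2 lines differed most. The 24 h call of Irs2 was lost with series matrix values, with array weights and in a fit of that time alone.

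Foxo1 itself read 0.27, 0.40, -0.15 and 1.03 in line 178119 and 0.28, 0.11, -0.29 and 0.79 in line 28545. Both lines were below 0 at 6 h (-0.22 ± 0.11, adjusted p = 0.167), when 6 other members had risen, and both were high at 24 h (0.91 ± 0.11, adjusted p = 0.000523). The second Foxo1 probe gave 0.16 at 6 h, which did not pass, and 0.63 at 24 h (adjusted p = 0.00309). The Foxo3 clone probe stayed between -0.41 and 0.25 on all 8 arrays and passed at no time.

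The sestrins differed. Sesn3 read -0.48, -0.18, 0.85 and 0.41 in line 178119 and -0.18, 0.14, 0.56 and 0.24 in line 28545, and passed at 6 h only (0.71 ± 0.12, adjusted p = 0.00318). Sesn1 read -0.09, -0.13, 0.00 and 0.45 in line 178119 and 0.03, 0.10, 0.08 and 0.11 in line 28545, and passed at no time. Tsc22d3 read -0.12, 0.12, 0.40 and 0.30 in line 178119 and -0.05, 0.39, 0.44 and -0.20 in line 28545, and passed at 6 h (0.42 ± 0.13, adjusted p = 0.0366). The 6 h calls of Pik3ip1, Irs2 and Tsc22d3 depended on the array of line 28545, and those of Sesn3 and Tsc22d3 on that of line 178119. Tsc22d3 also did not pass at 6 h with processed signals or with series matrix values.

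The difference between 24 h and 1 h, in which a dye bias of a probe drops out, was positive for Txnip (0.87 ± 0.14, adjusted p = 0.00644), Pik3ip1 (0.86 ± 0.19, 0.0291) and Foxo1 (0.64 ± 0.15, 0.0349). In this difference 7.09% of all genes passed, 3.42% higher. Of the second probes, that of Foxo1 passed (0.70, adjusted p = 0.0266), and those of Txnip (0.40, 0.159) and Pik3ip1 (0.14, 0.685) did not. Txnip alone passed when the 1 h or the 24 h array of line 178119 or the 1 h array of line 28545 was left out. Within a ratio at a single time, a constant dye bias and the drug cannot be told apart. The same bias drops out between 6 h and 1 h, a difference that was not tested. Both lines were higher at 6 h for Txnip, Ccng2, Sesn3, Pik3ip1, Irs2 and Tsc22d3 by their main probes (the second Pik3ip1 probe was not, in line 178119). These members are the ones that passed at 6 h, and the same 6 h values enter here. Sesn1 was also higher, at 0.00 and 0.08 in lines 178119 and 28545, against -0.09 and 0.03 at 1 h. The share of all genes higher at 6 h in both lines was not counted. Without the array of line 28545 at 24 h, the same 5 members passed at 24 h and Sesn1 joined them (0.45, adjusted p = 0.0457). A difference in response between the lines, averaged over the 4 times, passed for no member and for none of 17911 genes after adjustment. At an unadjusted p below 0.05 there were 643 genes and no member. A difference at a single time can be missed in such an average, so this does not show that the lines responded alike. The members' differences, line 178119 minus line 28545, lay between -0.10 and 0.17.

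Pathway genes beyond the members also changed under the drug. Over the mean of 4 times, 7 of 11 tested stress, autophagy and metabolism targets rose and 2 fell, with the autophagy genes Map1lc3b (0.54 ± 0.04, adjusted p = 3.08e-05) and Pink1 (0.53 ± 0.05, adjusted p = 7.28e-05) first. Of 9 tested arrest genes 5 rose and 2 fell, among them the p27 gene Cdkn1b (0.45 ± 0.05) and Rbl2 (0.45 ± 0.07), which encodes the pocket protein p130. Of 6 tested identity and homing genes 3 rose, among them Ccr7 (0.28 ± 0.09, adjusted p = 0.0392). Of 5 tested death genes 2 rose, among them Bcl6 (0.66 ± 0.05), a repressor that maintains the GC programme, and Trib3 fell (-0.78 ± 0.08). Of 24 tested PI3K-AKT genes 7 rose and 4 fell, with the phosphatase gene Inpp5d (0.37 ± 0.05) first, and of 11 FOXO factors and regulators 3 rose and 1 fell. Of 6 tested growth genes Ccnd1 (0.29 ± 0.05) rose and 2 fell, by far the most Myc (-1.54 ± 0.06, adjusted p = 3.19e-07). At 24 h 4 of those 6 had fallen, Ccnb1 by -0.79 ± 0.11, Plk1 by -0.65 ± 0.13, Foxm1 by -0.63 ± 0.12 and Myc by -0.45 ± 0.12. Only 4 MondoA axis genes were tested here, without Arrdc4 and Slc2a1. Hk2 (-0.41 ± 0.09) and Mlx (-0.24 ± 0.05) fell, and none passed as higher. The part of this axis in the Txnip rise was not tested. Of the 6 glucocorticoid receptor axis genes none passed as higher at any time, and Per1 (-0.35 ± 0.07) fell. The part of this axis in the Tsc22d3 values was not tested.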

How the data were processed

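Per the labels, 24 arrays read a sample (Cy5) against the common pool (Cy3) and 8 read drug-treated cells (Cy5) against vehicle-treated cells (Cy3). The deposited scanner files hold mean and background signals as intensity, made with Feature Extraction 10.1.1.1 per the file headers (version 9.1 and limma per the submitters' processing notes). The deposited log10 ratio of red over green equals the authors' series matrix within 5e-04; its column medians were -0.083 to 0.058, so it is not centred.

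From the intensities, normexp background correction (offset 50) and loess within arrays gave log2 ratios in limma 3.58.1 (R 4.3.3). Control and outlier spots were left out. Probes had to be well above background, in 1 channel or the other, on a share of 0.5 or more of a fit's arrays, and the brightest probe stood for a gene. Accessions of 27235 of 55681 probes (48.9%) matched RefSeq and gave their symbols. All 9 members passed the filter in every fit. Repeat arrays of a sample were averaged to 16 pool samples. Moderated tests with Benjamini-Hochberg adjustment ran over 21419 genes (12 residual degrees of freedom), over 22302 genes of the 6 splenic samples (3) and over 17911 genes of the 8 drug arrays (4). Titles gave the anti-IgM time of 6 h samples, since another label of theirs says 3 h. Drug arrays of a line share that line, which pairs them; deviations of arrays of the same line correlated at -0.347 to 0.23 over 6 pairs of times. Motifs were searched with Python 3.11.15. The fits were tested on simulated data. The number of arrays limits the precision. The members and lists were chosen with earlier results of these data known. Named genes were the members, the 2 genes most like each, and up to 3 of each list that passed with the largest differences; a few more that passed were added after their values were seen, and some list genes are not reported here. Alternatives covered background correction, normalisation, filters, array weights, slide and line blocks, and left-out samples.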

Additional observations from a re-analysis of the deposited data

Results flagged for a closer look

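Within the 9 lymphoma lines or the 4 anti-IgM samples, 2 of 18 combinations of a member and a group held a sample far from the rest by Dixon's test. In groups of like samples that test flags about 1 in 20 by chance. The anti-IgM samples differ in time and genotype, so this rate does not hold for them. Sesn1 in lymphoma line 1036 read -2.99 (log2 ratio to the pool), and the nearest of the other 8 lines read -1.93. Txnip in the ATMKO anti-IgM sample at 24 h read 0.22, and the nearest of the other 3 anti-IgM samples read -1.09. It is the only sample of that time, so an outlying sample and the time cannot be told apart. No member moved up on all arrays of 1 drug-treated line and down on all arrays of the other.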

How the results depend on the processing

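Of 280 recomputed counts of members that passed, 246 stayed within 1.5 times the reported count and 34 did not. Against untreated B cells, where 6 members passed, lymphoma lines had 1 among the single member above background on every array, 3 within slide 2 and 1 within slide 3, and 3 to 7 when 1 sample was left out. Against anti-IgM B cells (4 passed), the counts were 1 above background on every array, 2 within slides 2 and 3, and 2 to 4 with 1 sample left out. Against GC B cells (0 passed), Foxo3 alone passed within slide 2, which gives 1, and 0 passed with any sample left out. For GC minus untreated B cells (3 passed), the counts were 1 above background on every array, 5 with array weights, without the first GC array and without both poor arrays, 0 within slide 2 and with only the first repeat, and 0 to 4 with 1 sample left out. For anti-IgM minus untreated (0 passed), array weights gave 5, slide as a block 2, all 16 pool samples 1 (Txnip) and the 6 h samples only 7. Under PCI-32765, centring arrays on the median in place of loess gave 9 for the mean (5 passed), 8 at 1 h (0), 9 at 3 h (1) and 0 for 24 h minus 1 h (3). It moved the median of all genes to 0.423, 0.595, 0.584 and -0.209 in these fits. Relative to that median 8 and 9 members were above it at 1 h and 3 h, against 6 and 7 under loess. At 3 h array weights gave 3 and a fit of the 3 h arrays alone 2, and 24 h minus 1 h gave 1 with processed signals, with series matrix values and in a fit of those times alone. With 1 array left out, the ranges were 5 to 6 for the mean, 0 to 0 at 1 h, 1 to 1 at 3 h, 3 to 6 at 6 h, 4 to 6 at 24 h and 1 to 3 for 24 h minus 1 h. The fit with the cell line as replicate block gave the same counts as without it (5 for the mean, 0, 1, 6 and 5 at the 4 times, and 3), so pairing changed no call count. Ccng2 turned to 0.89 (adjusted p = 0.042) in lymphoma lines minus anti-IgM within slide 4 and to -0.43 (0.0439) in anti-IgM minus untreated with 6 h samples only. Under median centring Sesn1 turned to 0.66 at 1 h and 0.69 at 3 h, Tsc22d3 to 0.66 at 1 h and Sesn3 to 0.69 at 3 h. The causes were not tested beyond the samples and genes each setting leaves. The slide block was not run for the drug arrays, which share 1 slide. Dim signal limits the second Foxo3 probe, the second Pik3ip1 probe on the drug arrays and the first arrays of GC B cells and of line 1039. On that GC array, 29.4% of spots were above background. The main probes of Foxo1, Foxo3, Irs2 and Tsc22d3 were not. On that array of line 1039, Foxo1 alone was above background by its main probe.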
